A study of Mus musculus with 6 samples.

Results

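The genes described here are those of prostaglandin and leukotriene synthesis in mouse macrophages, and how their transcripts differed after 6 h with whole glucan particles (WGP), particles of yeast cell wall made mostly of beta-glucan. They were chosen as a list of 10 genes, and each array probe whose RefSeq accession belongs to one of them was taken, which gave 11 probes, 2 of them for Ptges. The arrays named 20279 genes in all. The cells were bone-marrow-derived macrophages of C57BL/6 mice between 6 and 8 weeks old, labelled as polarized to the alternatively activated (M2) state, and the labels do not give the polarizing agent. One group was incubated for 6 h in complete DMEM with WGP and the other in complete DMEM alone, called medium below. The RNA was read on 1-colour Agilent arrays. Each group had 3 deposited files, of which replicates 1 and 2 were separate hybridizations. In both groups the spot signals and backgrounds of replicate 3 before processing differed from those of replicate 1 at 0 of 44397 spots, so replicate 3 was left out and n = 2 arrays per group, which limits how precise any value can be. The labels do not say whether the replicates came from separate cultures or animals, so a p-value reflects no more than the scatter of these arrays, which may be technical.

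Eicosanoids are signalling lipids made from arachidonic acid, which cytosolic phospholipase A2 cuts from membrane phospholipids. The cyclooxygenases, Ptgs1 (mostly constitutive) and Ptgs2 (inducible), turn it into the unstable prostaglandin H2, and terminal synthases then make prostaglandin E2, prostaglandin D2 or thromboxane A2 from that common precursor. In the other branch 5-lipoxygenase, helped by the membrane protein FLAP, makes leukotriene A4, which is turned into leukotriene B4 or leukotriene C4. Macrophages are a main source of both classes, and phagocytosis of yeast particles is a classical trigger of arachidonic acid release in them.

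With WGP, the gene at the head of the pathway and the gene of the inducible prostaglandin E2 synthase were higher, while the genes of cyclooxygenase-1, of the prostaglandin D2 and thromboxane synthases and of FLAP were lower. Of the 10 genes, 8 passed the filter on dim probes, and all 8 were well above background on all 4 arrays. Among these 8, Pla2g4a and Ptges rose and Ptgs1, Hpgds, Tbxas1 and Alox5ap fell, while Lta4h and Ltc4s did not pass the test (limma, adjusted p under 0.05 over 10944 genes). Of all genes tested 40.5% changed, 23.2% higher and 17.4% lower with WGP, so being called is in itself common in these data. The median change of the 8 genes was -0.53 on the log2 scale, against 0.028 for all genes tested, and 5 of the 8 changed at least 2-fold, as did 14.7% of all genes at an adjusted p under 0.05. The 10 genes were chosen with earlier results of these data known, so these counts and medians only describe the list. A level is the log2 processed signal of a probe after subtracting that of the array's 75th percentile, changes are WGP minus medium, and because a level depends on the probe it is compared only within a gene.

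**Figure D1:**
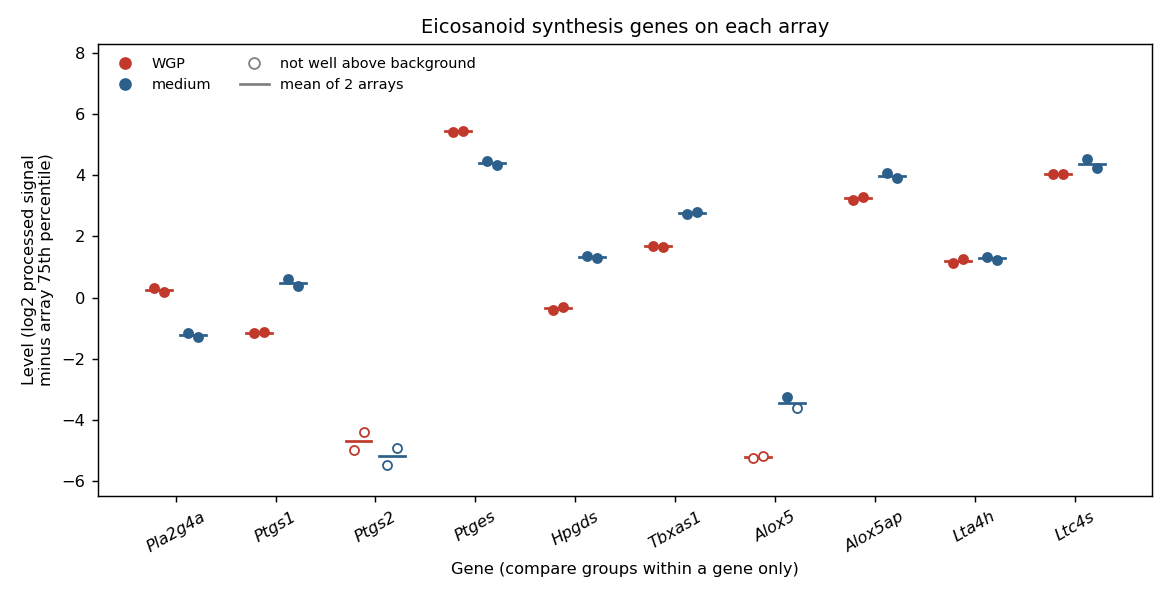
Level of each gene (log2 signal scaled to the array's 75th percentile) on each array, with WGP arrays to the left of medium arrays; points are arrays, lines are means of 2 arrays, and open points were not well above background. The groups lie apart for Pla2g4a and Ptges, higher with WGP, and for Ptgs1, Hpgds, Tbxas1 and Alox5ap, lower with WGP, while Ptgs2 is open on all 4 arrays.

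Pla2g4a encodes the cytosolic phospholipase A2 that releases arachidonic acid from phospholipids when calcium rises. Its level was 0.31 and 0.19 on the WGP arrays, against -1.15 and -1.30 on the medium arrays. Both WGP arrays lay above both medium arrays, and the gap was far wider than the distance between replicates. Pla2g4a rose 2.79-fold (1.48 ± 0.11 on the log2 scale, SE, adjusted p = 0.00307 in limma).

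The cyclooxygenase step was read by 1 probe for each of its enzymes. Ptgs1, the constitutive cyclooxygenase-1, was at -1.17 and -1.13 with WGP, against 0.62 and 0.36 in medium. The WGP arrays agreed closely and lay below both medium arrays. Ptgs1 was 3.11-fold lower with WGP (-1.64 ± 0.13, SE, adjusted p = 0.00323 in limma). Ptgs2, the inducible cyclooxygenase-2, was well above background on 0 of the 4 arrays, although its probe was spotted 10 times on each. On medium replicate 1, 9 of its spots were used, and 10 on each other array. The spots used had processed signals of 1.52 to 2.65 and 1.68 to 3.84 on the WGP arrays, against 1.74 to 2.17 and 1.81 to 4.51 on the medium arrays. The dimmest probe that was well above background on these arrays had a signal of 7.1 and 4.58 with WGP and of 7.34 and 8.34 in medium. Every Ptgs2 spot used was thus dimmer than that probe on its own array. A difference in Ptgs2 was not detectable at this signal. Whether this probe detects the transcript well was not tested.

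The terminal synthases diverged. Ptges, the inducible microsomal prostaglandin E synthase, was at 5.43 and 5.47 with WGP, against 4.48 and 4.33 in medium. The groups did not overlap, and Ptges rose 2.06-fold (1.04 ± 0.10, SE, adjusted p = 0.00509 in limma). A dimmer second probe of Ptges read -0.15 and -0.59 with WGP, against -2.17 and -2.74 in medium, where 1 of 2 arrays was well above background. That probe also rose, with a change of 2.09 ± 0.27 (SE, adjusted p = 0.0115 in limma over all 18442 probes kept). The probes agreed in direction and differed in size, so the fold of Ptges depends on the probe.

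Hpgds, the haematopoietic prostaglandin D synthase of macrophages and mast cells, was at -0.41 and -0.30 with WGP, against 1.37 and 1.30 in medium. It had the largest change of the 8 genes, 3.23-fold lower with WGP (-1.69 ± 0.10, SE, adjusted p = 0.00215 in limma). Over the 4 arrays, the genes whose levels, centred on their own mean, lay nearest to those of Hpgds were Mical1, Smarca2 and Ndrg1, at Euclidean distances of 0.066, 0.071 and 0.073 on the log2 scale. With 4 arrays in 2 groups such nearness mostly says that the changes were of like size, and theirs were -1.66, -1.73 and -1.67. Tbxas1, the thromboxane A synthase, was at 1.70 and 1.67 with WGP, against 2.73 and 2.82 in medium. Both WGP arrays lay below both medium arrays, and Tbxas1 was 2.12-fold lower (-1.09 ± 0.097, SE, adjusted p = 0.00403 in limma).

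Since the 3 synthases use the same precursor, their levels were also set against each other within each array. The log2 difference of Ptges and Hpgds, in units that depend on their probes, was 5.84 and 5.77 with WGP, against 3.10 and 3.03 in medium. The ratio of Ptges to Hpgds was thus 6.65-fold higher with WGP, and the scaling of the array cancels in it. Its log2 difference between the groups was 2.73, against 1.93 with normexp and 3.25 with the mean of the Ptges probes. Ptges minus Tbxas1 was 3.72 and 3.80 with WGP, against 1.75 and 1.51 in medium, a ratio 4.38-fold higher with WGP. Neither pair of groups overlapped, yet with 2 against 2 arrays the exact two-sided permutation test cannot go below 0.333, which was its p for each of the 3 pairs compared, before and after adjustment.

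The leukotriene branch was lower or did not pass the test. Alox5ap encodes FLAP, which presents arachidonic acid to 5-lipoxygenase. Its level was 3.21 and 3.30 with WGP, against 4.07 and 3.91 in medium. Alox5ap was 1.66-fold lower with WGP (-0.73 ± 0.11, SE, adjusted p = 0.0124 in limma). Alox5ap no longer passed when either WGP replicate was dropped, or with no filter on dim probes (adjusted p = 0.0721 in limma). Over 16 alternatives its adjusted p in limma ran between 0.000113 and 0.0721. The low end came from taking every file as its own sample, where replicate 3 repeats the hybridization of replicate 1. With normexp the adjusted p in limma was 0.000549. Alox5, the 5-lipoxygenase itself, was dim. It read -5.26 and -5.17 with WGP, not well above background on either array, against -3.27 and -3.61 in medium, where only replicate 1 was well above background. It therefore did not pass the filter and no fold is given, since its mean in medium, -3.44, lay between the lowest levels at which any probe was well above background on the WGP arrays (-3.06 and -3.62).

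Lta4h, the hydrolase that makes leukotriene B4, was at 1.13 and 1.28 with WGP, against 1.33 and 1.24 in medium. The groups overlapped, and the change of -0.076 ± 0.11 (SE) had a 95% interval of -0.37 to 0.22 (adjusted p = 0.601 in limma). Ltc4s, the synthase of leukotriene C4, was at 4.06 and 4.05 with WGP, against 4.54 and 4.23 in medium. Its change was -0.33 ± 0.14 (SE, 95% interval -0.71 to 0.048, adjusted p = 0.129 in limma). The groups of Ltc4s did not overlap, as was true of 7 of the 8 genes and of 75.1% of all genes tested. Ltc4s passed the test with quantile normalization (-0.49, adjusted p = 0.0486 in limma) and with normexp background correction (-0.49, adjusted p = 0.0278 in limma). Lta4h minus Ltc4s differed by 0.25 on the log2 scale between WGP and medium (exact permutation p = 0.333).

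**Figure D2:**
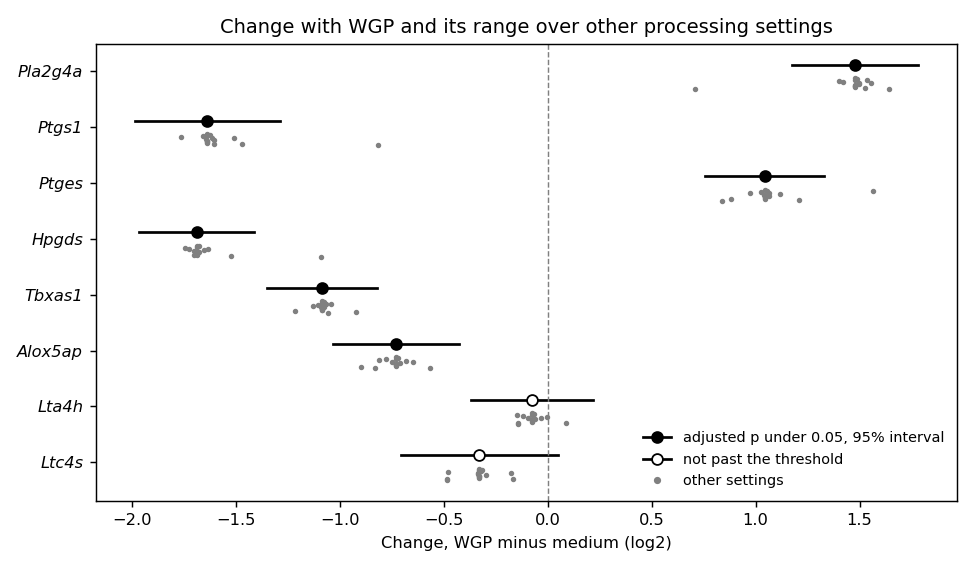
Change with WGP (WGP minus medium, log2) of the 8 genes past the filter, with the 95% interval from limma in black and the values under the 16 alternatives as grey dots. Filled points had an adjusted p under 0.05; the intervals of Lta4h (-0.37 to 0.22) and Ltc4s (-0.71 to 0.048) include 0, and the grey dots of the 6 called genes all lie on 1 side of 0.

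Slides 1 and 2 each carried 1 WGP and 1 medium array, at positions 3 and 1 of both slides per the file headers, so that position on the slide and treatment cannot be told apart. Within slides, Pla2g4a was higher with WGP by at least 1.46 on each slide, and Ptges by 0.95 and 1.14 on slides 1 and 2. Ptgs1 differed by -1.79 and -1.49, Hpgds by -1.78 and -1.60, Tbxas1 by -1.02 and -1.15 and Alox5ap by -0.86 and -0.60. Ltc4s differed by -0.47 and -0.19, and Lta4h, whose signs differed, by -0.19 and 0.038. With the slide as a block, the same 6 genes passed, with adjusted p between 0.00748 (Hpgds) and 0.0265 (Alox5ap) in limma, 2 higher and 4 lower, beside 37.2% of all genes, 20.7% higher and 16.6% lower.

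**Figure D3:**
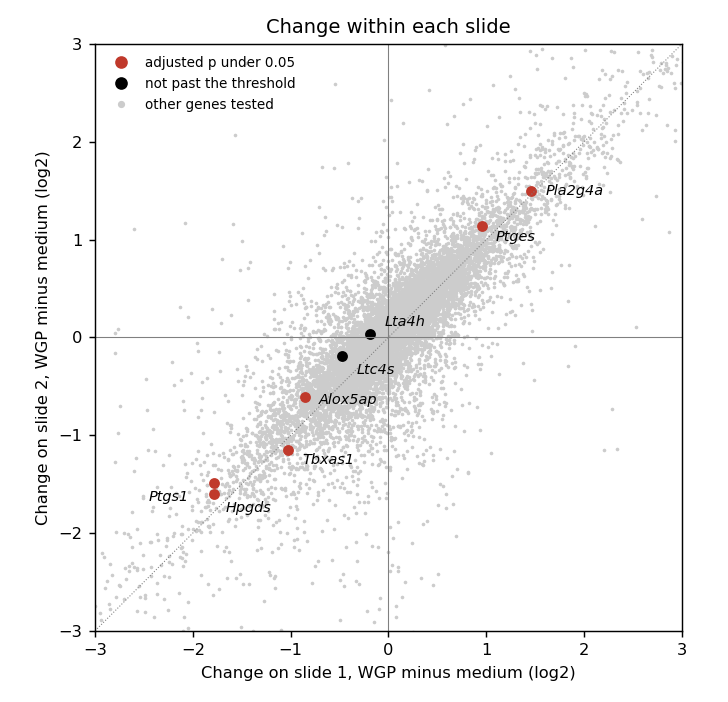
Change within slide 1 (horizontal) and within slide 2 (vertical), WGP minus medium on the log2 scale, for the 8 genes (large points) among all 10944 genes tested (grey, of which 209 lie outside the axes). The 6 called genes, in red, lie near the diagonal with the same sign on both slides, while Lta4h, in black, lies by the origin. The calls rest on these same arrays, so the shared sign is not separate support. Over all genes tested the changes on slides 1 and 2 correlated at 0.85.

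The size of some changes depended on how the background was treated. With normexp on the median spot signal, the changes were 0.71 for Pla2g4a, -0.82 for Ptgs1 and -1.09 for Hpgds. They were smaller than above, since its offset of 50 shrinks changes by construction, most where signals are low. All 3 kept their calls. When each array was scaled to its median, the median change of all genes was 0.19, and 72.71% of called genes were higher, against 57.14% with the 75th percentile. Of the 8 genes, 2 were again higher and 4 lower, beside 40.1% of all genes called, 29.1% higher and 10.9% lower.

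The stretches just before the starts of 4 of the genes are printed because they show what sequence lies upstream of 3 genes that fell and 1 that rose. They are the 250 bases before the start, 5′ to 3′ on the strand of the gene, from RefSeq on GRCm38.p6, at chr6:65144731-65144980, minus strand for Hpgds, chr2:36230176-36230425, plus strand for Ptgs1, chr6:38918736-38918985, plus strand for Tbxas1 and chr2:30903298-30903547, minus strand for Ptges. Capitals mark matches to 8 motifs, searched on both strands: kappaB (GGGANTTTC), a core of the cyclic AMP response element (TGACGT), the E-box (CACGTG), AP-1 (TGANTCA), C/EBP (TTGCNNAA), PU.1 (GAGGAAGT), the TATA box (TATAAA) and the GC box (GGGCGG).
Hpgds: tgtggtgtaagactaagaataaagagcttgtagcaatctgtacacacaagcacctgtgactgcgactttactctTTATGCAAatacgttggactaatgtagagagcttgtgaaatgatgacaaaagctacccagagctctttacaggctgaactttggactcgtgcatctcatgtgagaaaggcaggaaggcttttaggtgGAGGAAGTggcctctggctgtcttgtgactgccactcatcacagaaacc
Ptgs1: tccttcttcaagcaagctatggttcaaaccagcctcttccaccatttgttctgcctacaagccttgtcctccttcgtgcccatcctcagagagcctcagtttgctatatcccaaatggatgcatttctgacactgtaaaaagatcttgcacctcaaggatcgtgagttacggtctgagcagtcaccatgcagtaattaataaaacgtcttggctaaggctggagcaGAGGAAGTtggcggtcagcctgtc
Tbxas1: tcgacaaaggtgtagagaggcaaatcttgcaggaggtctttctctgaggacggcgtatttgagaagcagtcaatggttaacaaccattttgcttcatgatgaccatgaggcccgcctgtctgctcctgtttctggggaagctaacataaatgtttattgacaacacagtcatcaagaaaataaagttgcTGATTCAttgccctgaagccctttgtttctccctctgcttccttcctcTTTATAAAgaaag
Ptges: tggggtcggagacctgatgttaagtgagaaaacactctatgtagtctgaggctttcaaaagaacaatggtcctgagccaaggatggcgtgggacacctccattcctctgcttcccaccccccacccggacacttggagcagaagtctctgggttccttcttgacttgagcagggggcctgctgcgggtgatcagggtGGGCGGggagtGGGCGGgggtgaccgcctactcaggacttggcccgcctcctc

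The table of promoters held 9 of the 10 genes. Hpgds and Ptgs1 each had the PU.1 motif near the start, beginning 49 and 24 bases before it, and 2.44% of all 32851 promoters in the table held that motif. Hpgds also had a C/EBP match (in 9.56% of promoters) and Tbxas1 an AP-1 match (6.75%) beside overlapping TATA box matches (12.4%) that begin 13 and 11 bases before the start. Ptges had 2 GC boxes, beginning 53 and 42 bases before its start, and 32.7% of promoters held at least 1. The promoter of Ptgs2 had a C/EBP match and a GC box, that of Alox5 a GC box, and those of Lta4h and Ltc4s held none of the 8 motifs. Of the 2 starts of Pla2g4a, 1 had a TATA box match, 200 bases before it. The kappaB, cyclic AMP and E-box motifs (in 0.941%, 6.47% and 6.02% of promoters) were in 0 of the 9 genes. A match is a run of letters in this window and was not tested as a binding site.

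Around these genes, other parts of the pathway were read from lists of textbook members. The counts of each list below stand beside 40.5% of all genes tested that were called, 23.2% higher and 17.4% lower. Among 19 further phospholipase A2 genes, 9 passed the filter, of which 3 rose and 1 fell. Pla2g5, a secreted phospholipase A2 of macrophages, was at -1.44 and -1.49 with WGP, against -5.54 and -5.12 in medium, where it was not well above background. It was at least 3.55-fold higher with WGP (adjusted p = 0.00143 in limma), a bound in which each medium array enters at the dimmest level still well above background there, or at the probe's own level if higher. Pla2g5 passed the filter only through the WGP arrays. Its p uses medium values not well above background, so the p adds little to the bound, and normexp gave a change of 0.67. Pla2g7, which degrades platelet-activating factor, rose 3.54-fold (adjusted p = 0.00188) and the secreted Pla2g2e 2.08-fold (adjusted p = 0.00439), both in limma. The lysosomal Pla2g15 fell (-0.54, adjusted p = 0.0307), but did not pass once any 1 of the 4 arrays was dropped (adjusted p of 0.0587 to 0.137), with the slide as a block (0.0548) or with median scaling (0.103), all in limma.

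Of 18 genes that release, activate or re-esterify arachidonic acid, 12 passed the filter, and 6 rose and 4 fell. The acyl-CoA synthetases Acsl1, 4.65-fold (adjusted p = 0.00139), and Acsl4, which prefers arachidonic acid, 2.31-fold (adjusted p = 0.00513), rose in limma, as did the monoacylglycerol lipase Mgll, 2.78-fold (adjusted p = 0.00743). Daglb, a diacylglycerol lipase, was 1.87-fold lower (adjusted p = 0.00804) and the lipase Abhd12 1.75-fold lower (adjusted p = 0.00759 in limma), and neither passed with no filter on dim probes (0.0525 and 0.0541). Mboat7, which puts arachidonic acid back into phosphatidylinositol, fell by 0.65 (adjusted p = 0.0325), but did not pass once either WGP replicate or medium replicate 1 was dropped (adjusted p of 0.0618 to 0.117 in limma).

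Of 9 other prostanoid synthases, 6 passed the filter. Ptges3, the cytosolic prostaglandin E synthase that is also the co-chaperone p23, rose 2.41-fold (adjusted p = 0.00307 in limma). Ptges2, the other microsomal prostaglandin E synthase, was at -1.18 and -1.15 with WGP, against -1.16 and -1.17 in medium, and did not pass (0.0064 ± 0.092, SE, adjusted p = 0.959 in limma). The aldo-keto reductase Akr1b8 rose by 0.53 and Prxl2b, a prostamide reductase, fell by 0.48, at adjusted p of 0.0234 and 0.0306 in limma. The call of Akr1b8 ended when either WGP replicate or medium replicate 2 was dropped (adjusted p of 0.0723 to 0.114) and with quantile normalization (0.0511). That of Prxl2b ended when any 1 of the 4 arrays was dropped (adjusted p of 0.057 to 0.144), with the slide as a block (0.0549) and with median scaling (0.132), all in limma.

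All 8 genes of prostanoid breakdown and transport passed the filter, with 5 higher and 2 lower, beside 23.2% and 17.4% of all genes tested. Hpgd, the dehydrogenase that begins the breakdown of prostaglandins, was at -4.92 and -4.88 with WGP, against -0.04 and -0.53 in medium. It was not well above background on either WGP array, and was at least 8.28-fold lower with WGP (adjusted p = 0.0013 in limma). Hpgd passed the filter only through the medium arrays, its p uses WGP values not well above background, and normexp gave a change of -0.79. The prostaglandin reductase Ptgr2 was 2.28-fold lower (adjusted p = 0.00805), while Ptgr1, which also inactivates leukotriene B4, was 2.11-fold higher (adjusted p = 0.00441) and Zadh2, another prostaglandin reductase, 2.06-fold higher (adjusted p = 0.00608), all in limma. Abcc1, an exporter of leukotriene C4, rose 2.83-fold (adjusted p = 0.00266 in limma), and its change was 0.86 with normexp.

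Of 20 genes of other lipoxygenases and of leukotriene conversion, 9 passed the filter, with 1 higher and 6 lower. The epoxide hydrolase Ephx1 was 2.56-fold lower (adjusted p = 0.00441), Mgst3, a microsomal glutathione transferase, 1.97-fold lower (adjusted p = 0.00515) and Cyp4f18, which oxidises leukotriene B4, 1.90-fold lower (adjusted p = 0.00575), and Mgst1 rose 2.33-fold (adjusted p = 0.00467), all in limma. Alox15, a lipoxygenase known from alternatively activated cells, was well above background on none of the 4 arrays.

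Among 10 receptors of prostanoids, 5 passed the filter, with 2 higher and 1 lower. Ptgir, the prostacyclin receptor, was at 0.43 and 0.40 with WGP, against -2.21 and -2.30 in medium. It rose 6.38-fold, a change of 2.67 (adjusted p = 0.00129 in limma), against a change of 0.98 with normexp. Ptgdr2, the second prostaglandin D2 receptor, was at least 3.02-fold higher (adjusted p = 0.00575), with neither medium array well above background. It passed the filter only through the WGP arrays, its p uses medium values not well above background, and normexp gave a change of 0.35. Pparg, a nuclear receptor that prostaglandin D2 metabolites can bind, fell by 0.79 (adjusted p = 0.0128), and did not pass once WGP replicate 1 (0.0565) or 2 (0.0604) was dropped, all adjusted p in limma.

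Of 11 receptors of leukotrienes and other lipid mediators, 6 passed, with 2 higher and 2 lower. Cysltr1, a receptor of cysteinyl leukotrienes, had a change of -0.997 by its brightest probe (adjusted p = 0.00965) and of -1.98 as the mean over its probes, so its size depends on the probe, and it did not pass with no filter on dim probes (0.0557 in limma). The platelet-activating factor receptor Ptafr was 1.88-fold higher (adjusted p = 0.00643 in limma). The leukotriene B4 receptor Ltb4r1 was at least 1.86-fold lower (adjusted p = 0.0125), which did not hold once medium replicate 1 was dropped (0.055), and with normexp its change turned to 0.11 (adjusted p = 0.321 in limma). Ltb4r1 passed the filter only through the medium arrays, and its p uses WGP values not well above background. S1pr1 rose by 0.89 (adjusted p = 0.0152), lost without WGP replicate 1 (adjusted p = 0.0659 in limma).

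Of 12 kinases known to phosphorylate cytosolic phospholipase A2 or 5-lipoxygenase, 11 passed the filter, of which 3 fell and the other 8 did not pass the test. Mknk1 was 2.19-fold lower (adjusted p = 0.00345). Mapk14, at -0.87 (adjusted p = 0.036), and Mapk3, at -0.70 (adjusted p = 0.0149), lost their calls without either WGP replicate (adjusted p of 0.0682 to 0.115 in limma). Across these lists the count of genes that passed the filter holds some that passed through 1 group only, among them Pla2g5, Hpgd, Ptgdr2 and Ltb4r1, so these counts are a description of the lists.

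**Figure D4:**
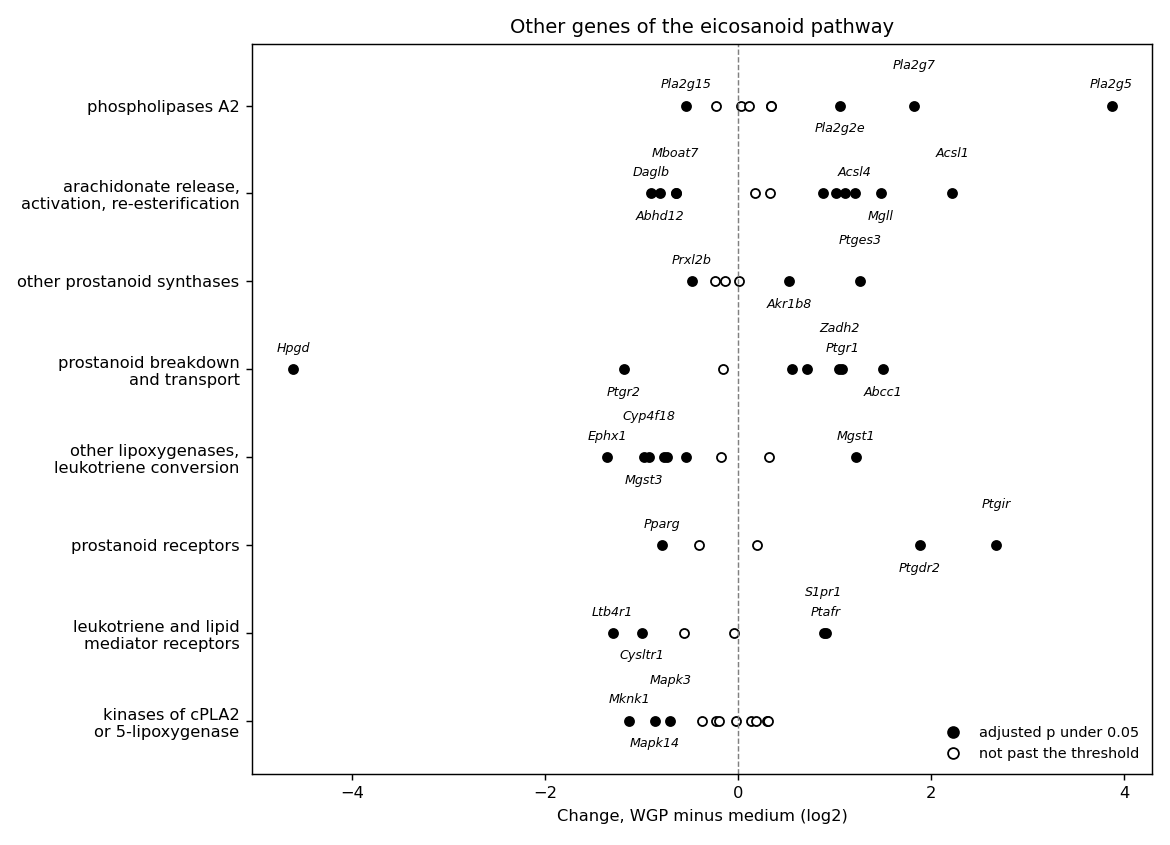
Change with WGP (WGP minus medium, log2) of the other pathway genes past the filter, by list; each point is a gene, filled at an adjusted p under 0.05 and open otherwise, and up to 3 called genes in each direction are named. Hpgd at the far left was not well above background with WGP (at least 8.28-fold lower), and Pla2g5 at the far right was not well above background in medium (at least 3.55-fold higher).

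The cells carried macrophage transcripts in both groups. All 13 named macrophage markers passed the filter, with 3 higher, among them Cd14, and 6 lower, among them Mertk. Beside this, 23.2% of all genes tested were higher and 17.4% lower. The median change of the macrophage markers was -0.37. Among the 6 lower ones, C1qa and C1qc did not pass with the slide as a block (adjusted p = 0.0641 and 0.067 in limma). Adgre1, a surface protein of mature macrophages, was at 6.32 and 6.40 with WGP, against 6.49 and 6.32 in medium. Of 10 genes of the alternatively activated state, 5 were well above background on none of the 4 arrays, among them Arg1 and Retnla. Of the other 5, Tgm2 rose and Clec10a and Mrc1 fell, with changes of 3.71, -4.03 and -0.64, and the median change of these 5 was -0.46. Hpgds and Ltc4s are also made by mast cells, and Ptgs1 and Tbxas1 by platelets. Of 10 named mast cell and basophil markers, 8, including Cpa3, Fcer1a and Ms4a2, stayed below that limit on all 4 arrays, and Prss34 was above it on 1 array. The mast cell tryptase Tpsb2 was well above background on all 4, at -0.48 and -0.66 with WGP, against -0.56 and -0.76 in medium, with overlapping groups (adjusted p = 0.589 in limma). For each list of other cell types the linear scaled signals of its probes were also added up on each array, a sum that its brightest probes set, and for mast cells it was 0.98 to 1.15 with WGP and 0.90 to 1.01 in medium. Of 8 platelet and megakaryocyte markers, Itga2b, Gp9 and Gp1ba were well above background on none of the 4 arrays, Pf4, which macrophages also express, rose and Gp1bb fell, and the sum, set mostly by Pf4 and Vwf, was 46.7 to 50.4 with WGP and 20.7 to 20.8 in medium. Of 11 named neutrophil markers, 8 were well above background on at least 1 array, and 1 of the 6 past the filter, Mmp8, rose. It was at -0.27 and -0.29 with WGP, against -2.15 and -3.56 in medium, where 1 of 2 arrays was well above background. Mmp8 thus passed the filter only through the WGP arrays. Its fold of 5.95 (adjusted p = 0.0211 in limma) uses a medium value not well above background. The neutrophil sum, set mostly by Csf3r, was 106 to 111 with WGP and 108 to 122 in medium. The eosinophil sum was 1.59 to 1.67 with WGP, and 1.40 and 4.03 on medium replicates 1 and 2. Probes that did not pass the filter gave most of the 4.03. Of 7 eosinophil markers 4 were well above background on at least 1 array, and Siglecf rose. Of 8 fibroblast markers 4 were so, Col3a1, well above background on the medium arrays only, fell, and the sum was 11.6 to 12.2 with WGP and 10.6 to 15.1 in medium. Of 8 lymphocyte markers 3 were so. Cd79a, well above background on only 1 WGP array and on both medium arrays, fell. Cd3e and Nkg7 did not pass, with changes of -0.016 and 0.067 (adjusted p = 0.957 and 0.881 in limma). The lymphocyte sum, set mostly by Cd3e and Nkg7, was 18.0 to 24.4 with WGP and 19.8 to 22.6 in medium. Of 6 named dendritic cell markers 2 were well above background on at least 1 array, and the sum was 0.975 to 1.21 with WGP and 0.616 to 0.996 in medium. Ccr7, of these markers, rose (adjusted p = 0.0371), but did not pass with the slide as a block (0.0554), both in limma. The part of other cells in the changes above was not tested. In such bulk RNA, fewer cells of a type and less RNA per cell cannot be told apart.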

How the data were processed

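The authors deposited 1-colour scanner files that give a processed intensity for each spot. The submitters' processing notes name Agilent Feature Extraction 10.7.3, and per the file headers the background was subtracted. The flags (well above background, outlier) were also deposited. The authors also deposited a table of processed values on a log2 scale, which matched log2 of the processed signal minus the 75th percentile of the array, after centring each gene, at a correlation of 0.9999 over 10944 genes. Its columns had medians of 0.0998 and 0.13 for WGP replicates 1 and 2 and -0.0144 and 0.164 for medium replicates 1 and 2. What each probe was centred on is unknown, and this table served only as an alternative.

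At every spot, averaging medium replicates 1 and 2 gave the processed signal of medium replicate 3 within 0.695%, and multiplying WGP replicate 1 by 1.3 gave WGP replicate 3 within 0.488%. The 1377 control spots and the 118 to 183 outlier spots of each array were not used, and 0 spots were saturated. The 75th percentile was 59.2 and 56.1 with WGP and 85.8 and 68.6 in medium, and 46.6% and 45.0% of 39429 probes were well above background with WGP, against 50.6% and 46.5% in medium. Probes were named through RefSeq accessions (assembly GRCm38.p6), 26755 of them, and no array coordinates are given. A probe was kept if well above background (at least 0.5 of its spots) on both arrays of at least 1 group. The brightest kept probe stood for each of 10944 genes, tested with limma 3.58.1 in R 4.3.3 with Benjamini-Hochberg adjustment. This test was also tried on simulated data with far fewer changed genes than were called here, so that trial does not measure the error of the calls above.

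The members, lists and named genes (all 10 members, and up to 3 called genes in each direction per list) were chosen with earlier results of these data known. The count of called genes is 4435, 2534 higher and 1901 lower. For replicates 1 and 2, same-numbered arrays share a slide per the file headers, not the labels. The header of medium replicate 3 names another slide than that of medium replicate 1, although the spot positions and raw values are the same. The deviations of same-numbered arrays from their group means correlated at 0.14 over the 10944 genes. With 2 arrays per group this value is the same for both pairs by construction, so it is 1 correlation.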

Additional observations from a re-analysis of the deposited data

How the results depend on the processing

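Over 16 alternatives the number of the 8 genes called stayed between 5 and 7. The share of all genes called ran from 7.56% with no filter on dim probes to 68.1% with every file as its own sample. With no filter Alox5 was also tested and passed (adjusted p = 0.0288 in limma), although it was well above background on only 1 of the 4 arrays. Pla2g4a, Ptgs1, Ptges, Hpgds and Tbxas1 kept their direction and their call in all 16, with changes of 0.71 to 1.64, -1.77 to -0.82, 0.84 to 1.56, -1.74 to -1.09 and -1.22 to -0.92. The change of Lta4h, not called in any, turned to 0.089 with median scaling, and that of Ltb4r1 to 0.11 with normexp, where it was not called. The number of changed genes over the whole array was 1532 with no filter on dim probes, where more genes are tested, and 7448 with every file as its own sample, where files that hold the same hybridization count as replicates. Without 1 array it ranged from 2254 to 3282, where the spread of the single remaining array is borrowed from the other group. With the slide as a replicate block 4074 genes changed. Among the genes named the block ended the calls of Pla2g15, Prxl2b and the markers Ccr7, C1qa and C1qc (adjusted p = 0.0548, 0.0549, 0.0554, 0.0641 and 0.067 in limma). Testing every kept probe on its own, an alternative chosen after seeing the data, called 6306 of 18442 probes and the same 6 members. With no filter, 12 of the other pathway genes named lost their calls, at adjusted p of 0.0525 to 0.143 in limma, namely Pla2g15, Daglb, Abhd12, Mboat7, Prxl2b, Akr1b8, Pparg, Ltb4r1, Cysltr1, S1pr1, Mapk14 and Mapk3. Signal over background limits what can be said of Ptgs2 and Alox5.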
